A study of Mus musculus with 6 samples.

Results

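The genes described here are the potassium channel genes of differentiating mouse muscle cells, taken as every row of the deposited count table whose symbol is Kcn followed by letters and a closing number. The rule used names only, no measured value, and found 92 of 56792 rows. By symbol, 40 were voltage-gated channel subunits, 15 inward rectifiers, 8 calcium-activated channels with their sodium- and pH-regulated relatives, 14 tandem-pore (2-pore) channels and 15 accessory subunits. C2C12 is an established, wild-type mouse myoblast line whose cells leave the cell cycle and fuse into myotubes when serum is lowered. All 6 RNA-seq libraries were made from such cells after 4 days in differentiation medium with 2% horse serum. The cells of 3 libraries also received 1 µM lenvatinib, a kinase inhibitor used against thyroid, liver and kidney cancer that acts on the VEGF and FGF receptors, PDGF receptor alpha, KIT and RET, and the other 3 were untreated. The labels do not say whether replicates were separate cultures, whether untreated cells received the solvent or when the drug was added, so the p-values reflect the variation among these 6 libraries, and that variation could be purely technical. The line stands for muscle cells without nerve, vessel or fibre type, and a dish holds fused myotubes beside cells that have not fused. In such bulk samples fewer cells of a kind and less RNA per cell cannot be told apart.

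Potassium channels let potassium leave the cell along its gradient and so pull the membrane potential toward rest. In skeletal muscle the inward rectifiers hold the resting potential, voltage-gated channels end the action potential, calcium-activated channels tie the potential to cytosolic calcium, and tandem-pore channels carry a background leak. During myoblast differentiation the membrane hyperpolarises before fusion, and in human myoblasts the channels encoded by KCNH1 and KCNJ2 are known for this step. Most pore-forming subunits assemble as tetramers, and accessory subunits change their gating or their delivery to the membrane without forming a pore.

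The libraries held 24566768 to 32406563 counts, of which the 92 genes took 0.0388 to 0.0413%. A floor of 3 counts corresponded to 0.0927 to 0.123 CPM (CPM are counts scaled to the library total with TMM factors), a limit that covers counting error only. Of the 92 genes, 35 had 0 counts in all 6 libraries, 32 had counts but too few for the test, and 25 were tested. A row at 0 is not read as an absent transcript, since Rps10, which encodes a ribosomal protein, was at 0 to 8 counts per library here. The 12 markers of differentiated skeletal muscle were all tested and summed to 19299 to 19964 CPM in untreated and 20237 to 20367 CPM in lenvatinib libraries; 6 rose, among them Myog (1.21-fold, edgeR adjusted p = 6.51e-12), 1 fell (Des) and 5 did not pass. Their part in the channel results was not tested. The other lists, smooth muscle apart, were far lower: neuron 94.6 to 98.98 CPM without and 76.5 to 81.3 CPM with lenvatinib, nearly all from Stmn2 and Map2, with 2 counts of Snap25 and 1 of Rbfox3 in all; cardiomyocyte 14.4 to 15.9 and 12.8 to 15.1 CPM, mostly Myh6. The glia, endothelium and macrophage lists each summed to under 2.5 CPM in every library, most of it from Mbp, Tek, Egfl7, Lyz2 and Cd68.

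With lenvatinib, 11 of the 25 tested potassium channel genes fell, 1 rose and 13 did not pass (edgeR quasi-likelihood test, Benjamini-Hochberg adjusted p under 0.05 over 14989 rows). Over all rows tested 14.9% fell and 13.3% rose, 28.2% in either direction. The falls were spread over all 5 classes, with 3 of 11 tested voltage-gated genes, 2 of 3 inward rectifiers, 1 of 4 calcium-activated genes, 2 of 2 tandem-pore genes and 3 of 5 accessory subunits. The gene that rose was Kcnn3, a calcium-activated channel. The median log2 fold change of the 25 tested genes was -0.33, beside 0.00 (0.0027) over all rows tested. The groups did not overlap in 14 of the 25, 11 of them lower, beside 40.1% of all rows tested, 20.5% lower and 19.6% higher. Kcnmb2 is in the counts of falls and of non-overlap, and Kcnq1 in the count of non-overlap. Both were tested only because they were high in a single group, so they add no support to these counts.

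Levels of single genes are ranked here per length, as CPM per kilobase of the deposited feature length, which counts all annotated exons and so understates genes that use a short isoform. Sums over classes and lists, and cut-offs in CPM, are not per length and so weigh long genes more. Of the 25 tested genes 22 are described by name. On that scale Kcnf1 was at 9.49 ± 0.53 CPM per kb in untreated and 9.96 ± 0.328 CPM per kb in lenvatinib libraries (SD, n = 3), and Kcnj12 at 7.47 ± 0.306 and 5.65 ± 0.106 CPM per kb. The ranges of these genes did not meet in either group. The next named genes changed order between the groups. In untreated libraries Kcnj2 (4.87 ± 0.391 CPM per kb) lay above Kcnn3 (3.68 ± 0.186), and in lenvatinib libraries Kcnn3 (4.43 ± 0.21) lay above Kcnj2 (3.02 ± 0.0977). Kcnn4, Kcnk5, Kcnn1, Kcnab3 and Kcnmb4 followed between 1.16 and 2.77 CPM per kb in both groups, and the other named genes were under 0.67 CPM per kb.

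**Figure D1:**
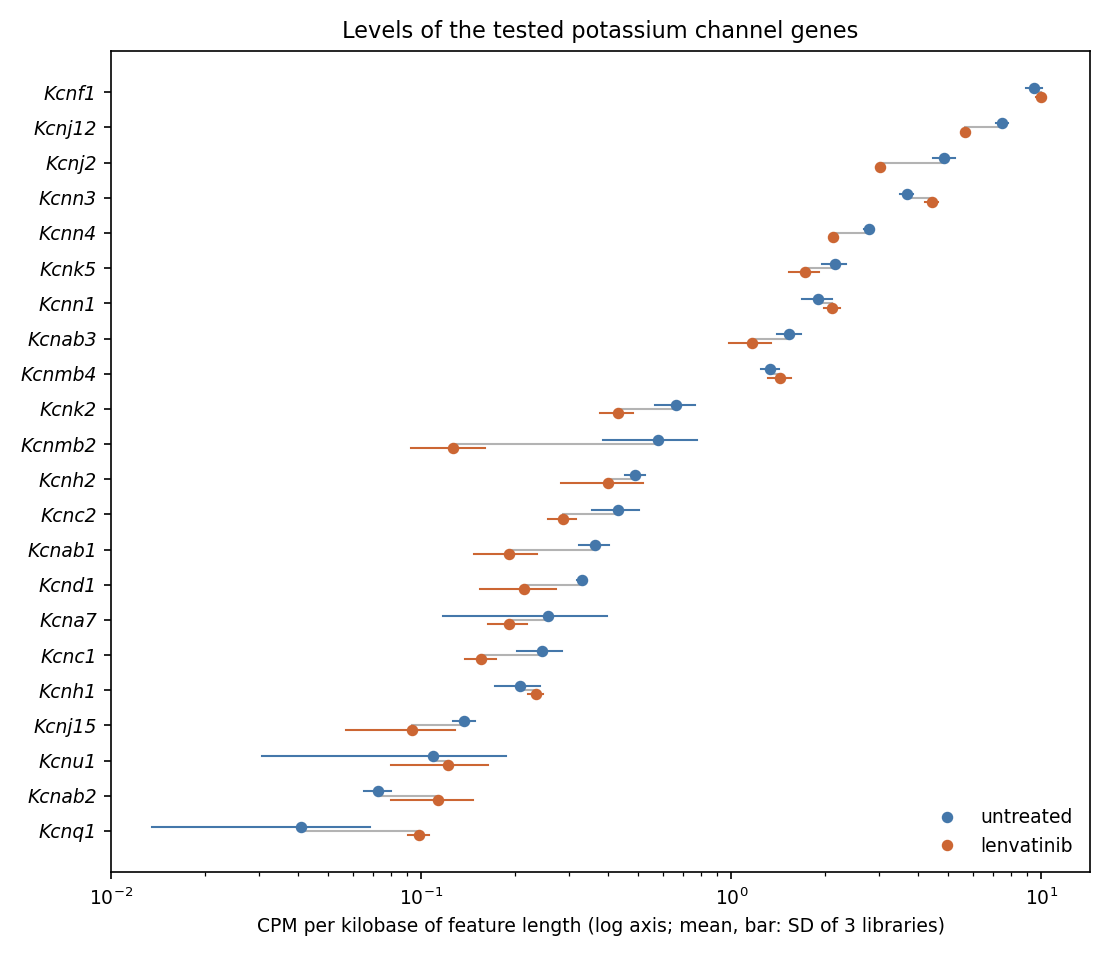
Level of 22 of the 25 tested potassium channel genes in CPM per kilobase of feature length on a log axis, as the mean of 3 untreated (blue) and 3 lenvatinib libraries (orange) with bars of 1 SD, ordered by the untreated level. Kcnj2 moves from above Kcnn3 to below it, and Kcnmb2 has the widest gap between its groups.

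Inward rectifiers pass potassium more easily into than out of the cell and so clamp the resting potential. Kcnj2 and Kcnj12 encode the strong rectifiers of heart and skeletal muscle; loss of human KCNJ2 causes Andersen-Tawil syndrome, with periodic paralysis and arrhythmia. Both transcripts fell, and they held nearly all counts of the class. Kcnj2, on chromosome 11 from 110956990 to 110967647 in the deposited coordinates, was at 28.5, 26.8 and 24.2 CPM in the 3 untreated and 16.2, 17.02 and 16.004 CPM in the 3 lenvatinib libraries. Every lenvatinib library lay well below every untreated one, and the untreated libraries spread more widely. The fall was 1.61-fold (log2 fold change -0.69 ± 0.07 SE, edgeR adjusted p = 3.70e-11), the smallest p of the family. Kcnj12, on the same chromosome from 60913390 to 60961957, was at 37.8, 39.9 and 40.99 CPM without and 30.1, 30.4 and 29.3 CPM with lenvatinib. Its groups did not overlap either, and the fall was smaller, 1.32-fold (-0.40 ± 0.05, edgeR adjusted p = 4.27e-08). The 95% intervals of the log2 fold changes, -0.82 to -0.56 for Kcnj2 and -0.51 to -0.30 for Kcnj12, did not meet. Summed over the 15 inward rectifier genes, the class held 67.4 ± 0.79 CPM in untreated and 47.1 ± 1.04 CPM in lenvatinib libraries.

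The 250 bases upstream of an annotated RefSeq start of each of these genes are shown with those of Kcnn3, the gene that rose. The 3 genes are among the most abundant that passed the test and moved in opposite directions. The windows were read from RefSeq (GRCm38.p6, plus strand), whose gene positions differ from the deposited ones. There 67 of the 92 genes had a start window. The Kcnj12 window lies further from the deposited start of its row than the Kcnj2 window does on the same chromosome. It can therefore mark a start inside the Kcnj12 row, and the 3 windows may not be like for like. Capitals mark E-boxes, the letters CANNTG bound by basic helix-loop-helix factors such as MyoD and myogenin, which read the same way on both strands.
Kcnj2 chr11:111065914-111066163: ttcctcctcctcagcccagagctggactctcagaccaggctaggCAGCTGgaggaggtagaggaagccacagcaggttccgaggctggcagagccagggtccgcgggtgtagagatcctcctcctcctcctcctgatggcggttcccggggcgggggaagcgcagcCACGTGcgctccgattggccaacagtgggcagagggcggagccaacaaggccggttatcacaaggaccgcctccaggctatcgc
Kcnj12 chr11:61065554-61065803: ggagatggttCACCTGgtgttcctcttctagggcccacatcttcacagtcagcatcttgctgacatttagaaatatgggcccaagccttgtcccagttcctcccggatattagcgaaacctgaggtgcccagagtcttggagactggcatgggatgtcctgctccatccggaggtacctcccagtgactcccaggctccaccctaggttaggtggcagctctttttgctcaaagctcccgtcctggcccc
Kcnn3 chr3:89519914-89520163: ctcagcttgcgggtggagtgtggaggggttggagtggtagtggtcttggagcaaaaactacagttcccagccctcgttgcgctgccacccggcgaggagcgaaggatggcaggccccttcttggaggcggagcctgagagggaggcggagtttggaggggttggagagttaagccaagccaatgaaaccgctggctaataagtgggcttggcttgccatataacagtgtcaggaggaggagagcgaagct
Kcnj2 held 2 E-boxes, Kcnj12 held 1 and Kcnn3 held 0. E-boxes stood in 66.2% of all 32851 windows of this length. One of the 2 E-boxes of Kcnj2 had the core CAGCTG, which 13% of windows held. No window of the 3 held the AP-1 letters TGANTCA (6.7% of all windows), the ETS letters CCGGAAG (6.9%), TATAAA (12.4%), a CArG box (1.5%) or a MEF2 site (2.9%), searched on both strands. A match describes letters only. The G and C share was 65.6% for Kcnj2, 56% for Kcnj12 and 58.8% for Kcnn3, beside a median of 52.4% over all windows.

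The other inward rectifiers were low. Kcnj15 was at 0.94, 0.862 and 0.8 CPM without and 0.848, 0.45 and 0.463 CPM with lenvatinib; the groups overlapped and it did not pass (-0.58 ± 0.33, edgeR adjusted p = 0.201). Kcnj16, whose product joins other inward rectifiers in pH-sensitive channels of kidney and glia, had 8, 10 and 7 counts in the untreated and 0 in each lenvatinib library. Its counts were too few for the test, and the gene was singled out after its values were seen. Its untreated level was 8.4-fold above a floor of 3 counts over the lenvatinib group. That value leaves out the counting error of the untreated counts, so the true bound is smaller. Kcnj16 is the neighbour of Kcnj2 in the deposited coordinates, on the same strand and 38195 bases upstream of it. In a fit with no filter on low counts Kcnj16 was called lower (edgeR adjusted p = 5.99e-05). Kcnj11, the pore of the muscle ATP-sensitive channel, had only 2 to 7 counts per library, while Kcnj8, the other pore of that channel type, had 0 counts throughout.

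**Figure D2:**
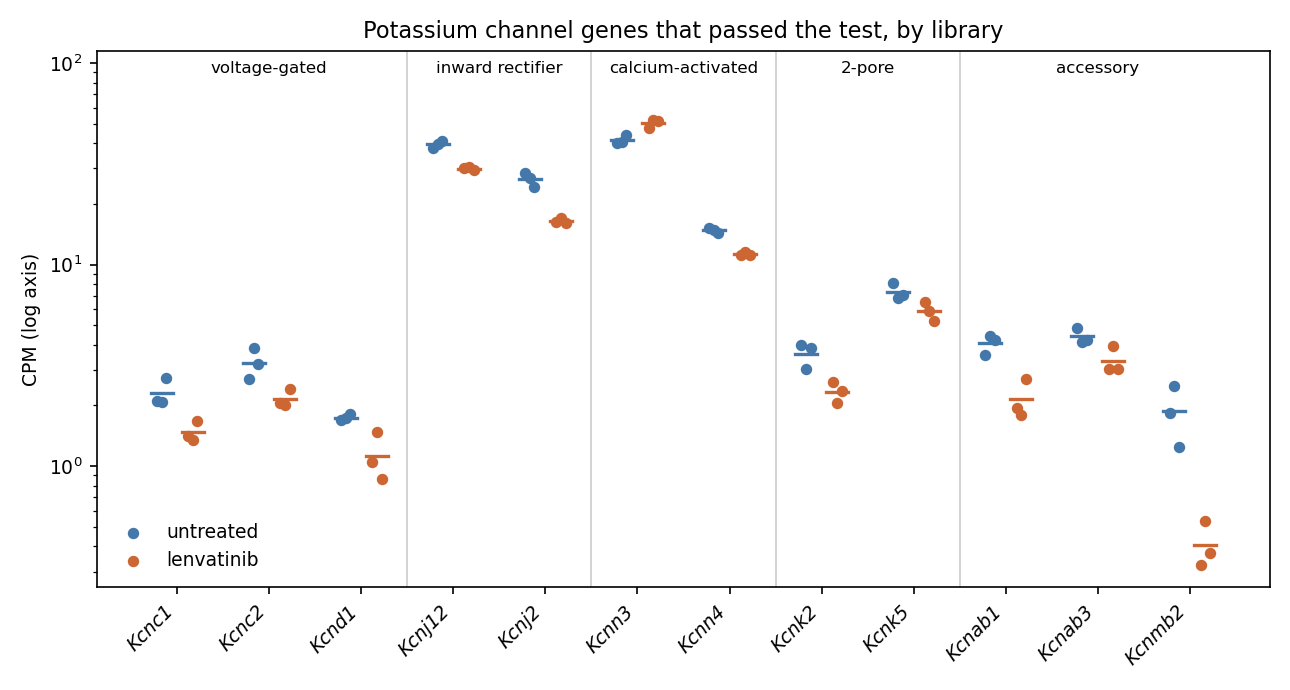
CPM of the 12 potassium channel genes that passed the test in each of the 6 libraries, on a log axis, grouped by class; points are libraries and short lines are group means of 3. The lenvatinib points (orange) lie below the untreated points (blue) in 11 genes and above them in Kcnn3, with the widest gap in Kcnmb2.

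Among voltage-gated genes 3 members near or under 3 CPM fell and 8 did not pass. Kcnf1, a silent subunit that makes no channel alone but joins other voltage-gated subunits, was at 48.1, 42.99 and 45.2 CPM without and 46.2, 47.5 and 49.3 CPM with lenvatinib. The groups overlapped and it did not pass, with an interval of -0.02 to 0.17 for the log2 fold change of 0.07 (edgeR adjusted p = 0.286).

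The voltage-gated genes that fell were Kcnc1, Kcnc2 and Kcnd1. Kcnc1 and Kcnc2 encode fast delayed rectifiers best known from fast-spiking neurons, and Kcnd1 a rapidly inactivating A-type channel. Kcnc1 was at 2.11, 2.08 and 2.75 CPM without and 1.41, 1.35 and 1.67 CPM with lenvatinib (-0.64 ± 0.21, edgeR adjusted p = 0.0164). Kcnc2 was at 2.71, 3.84 and 3.2 CPM without and 2.06, 2.005 and 2.41 CPM with lenvatinib (-0.58 ± 0.17, edgeR adjusted p = 0.00987). Kcnd1, on the X chromosome, was at 1.69, 1.72 and 1.81 CPM without and 1.05, 1.47 and 0.865 CPM with lenvatinib (-0.65 ± 0.24, edgeR adjusted p = 0.0373). In all 3 the groups did not overlap, but each call depended on single libraries. Kcnc1 no longer passed without untreated library 3 (edgeR adjusted p = 0.142) or lenvatinib library 2 (0.0588), and Kcnc2 not without the second untreated library (0.0929). Kcnd1 kept its call only when the second lenvatinib library was left out, with edgeR adjusted p = 0.0661, 0.0739 and 0.105 without untreated library 1, 2 and 3 and 0.0936 and 0.21 without lenvatinib library 1 and 3. The neuronal list fell as well in the members that passed: of its 3 tested genes Map2 and Stmn2 fell and Nefl did not pass. Their part in the falls of Kcnc1 and Kcnc2 was not tested.

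Kcnh1 and Kcnh2 did not pass. Kcnh1 was at 1.24, 1.72 and 1.6 CPM without and 1.74, 1.8 and 1.61 CPM with lenvatinib (0.17 ± 0.22, edgeR adjusted p = 0.627). The span of its row, introns included, overlaps that of Hhat on the other strand by 13449 bases, and whether the counting used strand is not stated. Kcnh2, whose human form repolarises the heart, was at 2.63, 2.31 and 2.33 CPM without and 2.67, 1.64 and 1.67 CPM with lenvatinib (-0.30 ± 0.20, edgeR adjusted p = 0.291). In both genes the groups overlapped. Kcnq1, the pore of a cardiac and epithelial channel, came nearest to the threshold without passing: it had 3, 8 and 3 counts in untreated and 10, 10 and 15 counts in lenvatinib libraries (1.28 ± 0.51, edgeR adjusted p = 0.0555). It reached the low-count filter in 3 lenvatinib and 0 untreated libraries, so it was tested only because it was high in that group, and its lack of overlap and its p support nothing by themselves. Without the second untreated library it passed as higher (1.94, edgeR adjusted p = 0.0221), as it did with limma-voom (adjusted p = 0.0286). The span of the Kcnq1 row, introns included, lies across the antisense transcript Kcnq1ot1, which had 84 counts in untreated and 73 in lenvatinib libraries. Whether counted exons of the pair overlap was not tested, and the strand setting is not stated. Kcna7 was under 0.87 CPM in all libraries and overlapped between the groups. Of the 29 voltage-gated genes not tested, 17 had 0 counts throughout. Among the other 12, Kcnh7 had 2, 7 and 6 counts without and 8, 21 and 18 with lenvatinib, a gene singled out after its values were seen; with no filter it was called higher (edgeR adjusted p = 0.00921).

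Calcium-activated channels moved in both directions. Kcnn1, Kcnn2 and Kcnn3 encode the small-conductance channels that open when calcium rises and prolong the pause after an action potential, and Kcnn3 is known to return in denervated muscle. Kcnn4 encodes the intermediate-conductance channel of dividing and non-excitable cells such as lymphocytes and fibroblasts. Kcnn3, on chromosome 3 from 89427471 to 89582439, was at 40.3, 40.7 and 44.2 CPM in untreated and 47.6, 52.005 and 51.4 CPM in lenvatinib libraries. All lenvatinib libraries lay above all untreated ones, a rise of 1.21-fold (0.27 ± 0.05, edgeR adjusted p = 1.97e-05). Kcnn4 went the other way, from 15.2, 14.9 and 14.3 CPM to 11.2, 11.6 and 11.2 CPM, with tight groups far apart and a fall of 1.31-fold (-0.39 ± 0.08, edgeR adjusted p = 0.000152). Kcnn1 was at 7.6, 9.25 and 9.32 CPM without and 10.1, 9.04 and 9.98 CPM with lenvatinib, overlapping and not called (0.16 ± 0.10, edgeR adjusted p = 0.253).

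The list of myoblast and dividing-cell markers summed to 192 to 222 CPM without and 225 to 241 CPM with lenvatinib, with 3 of 6 members higher and 0 lower, beside the lower Kcnn4; its part was not tested. Kcnn2 and the sodium-activated Kcnt1 had 0 counts in all libraries. Kcnma1, the large-conductance BK channel of muscle and nerve, had a single count in all 6 libraries, in the second lenvatinib library. Kcnu1, the sperm channel related to Kcnma1, was under 0.65 CPM and overlapped between the groups, and Kcnt2 had 3 to 10 counts per library. Summed over the class, the untreated libraries were at 63.5 to 68.7 CPM and the lenvatinib libraries at 69.7 to 73.5 CPM.

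Both tested tandem-pore genes fell. These channels have a pair of pore loops in each subunit and are open at rest. Kcnk2 encodes a channel opened by stretch and lipids, and Kcnk5 one opened by alkaline pH and cell swelling. Kcnk2 was at 3.99, 3.02 and 3.86 CPM without and 2.63, 2.05 and 2.35 CPM with lenvatinib, 1.55-fold lower (-0.63 ± 0.17, edgeR adjusted p = 0.00285). Its groups did not overlap. The span of the Kcnk2 row contains the pseudogene Pdcd5-ps on the same strand, which had 998 counts in untreated and 1021 in lenvatinib libraries and was not called, and how the counting split such reads was not tested. Kcnk5, the more abundant of the pair, was at 8.09, 6.82 and 7.09 CPM without and 6.5, 5.89 and 5.22 CPM with lenvatinib, 1.26-fold lower (-0.33 ± 0.11, edgeR adjusted p = 0.0265). The groups of Kcnk5 came close, and it no longer passed without the first untreated library (edgeR adjusted p = 0.155), the second lenvatinib library (0.0544) or the third (0.174). Of the other 12 tandem-pore genes 6 had 0 counts, and the most abundant of the rest, Kcnk7, had 6 to 12 counts in untreated and 2 to 17 in lenvatinib libraries.

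**Figure D3:**
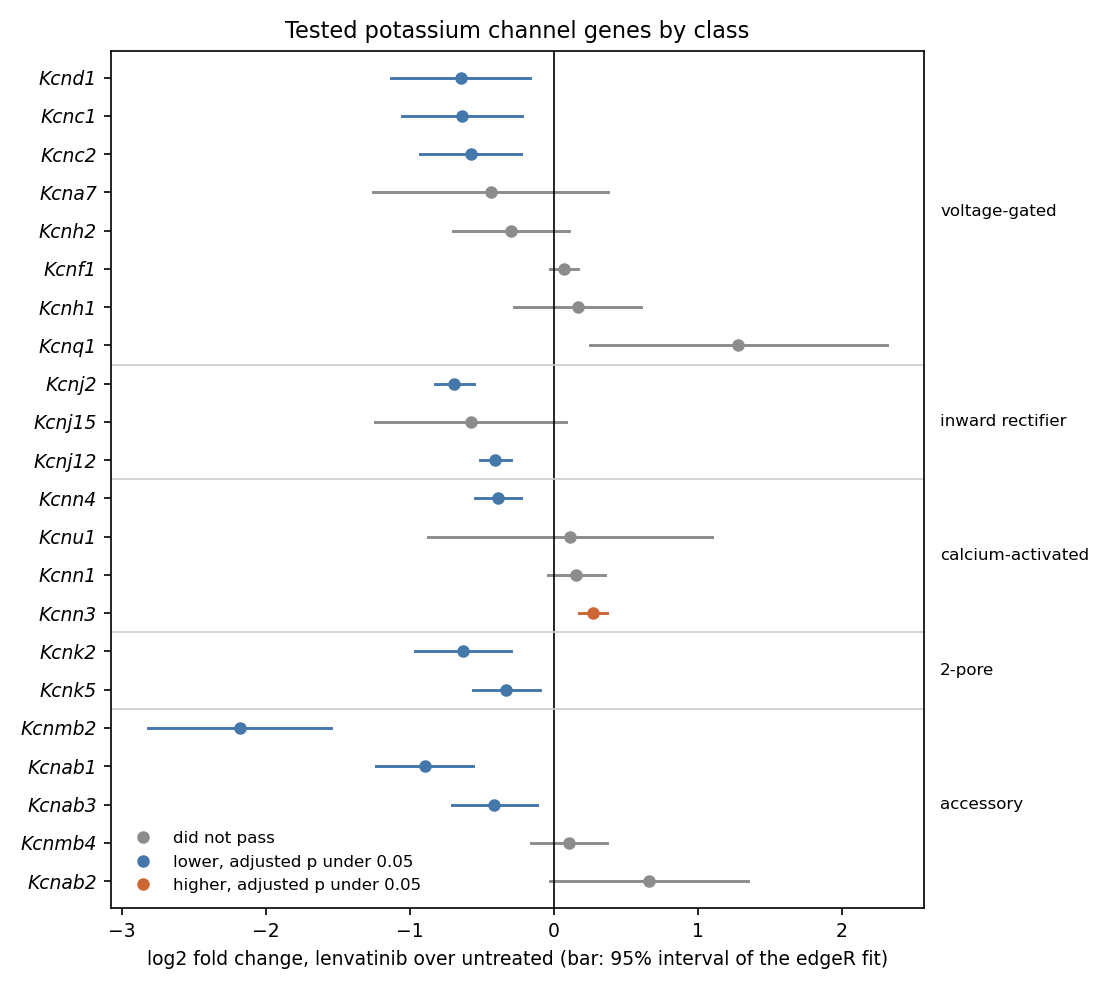
Log2 fold change of 22 of the 25 tested potassium channel genes (points) with its 95% interval from the edgeR fit (bars), grouped by class; blue genes fell, the orange gene rose and grey genes did not pass. Kcnmb2 lies furthest left at -2.18, and the narrow interval of Kcnf1 lies near 0.

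Among the 25 genes that passed the low-count filter, the steepest fall was that of an accessory subunit. Kcnmb2 encodes a beta subunit that makes BK channels inactivate, and Kcnmb4 the neuronal beta subunit of the same channel. Kcnmb2, on chromosome 3 from 31956656 to 32254329, was at 1.84, 2.51 and 1.25 CPM in untreated and 0.323, 0.532 and 0.371 CPM in lenvatinib libraries (49, 64 and 36 against 8, 13 and 12 counts). The untreated libraries varied by a factor of about 2, yet the lowest of them lay above every lenvatinib library, and the fall was 4.53-fold (-2.18 ± 0.31, edgeR adjusted p = 4.30e-07). Kcnmb2 reached the low-count filter in 3 untreated libraries and 1 lenvatinib library, so it was tested only because it was high in the untreated group. Its lack of overlap and its p therefore support nothing by themselves. With no filter on low counts it was also called lower (edgeR adjusted p = 1.14e-11), from the same counts, so that call adds no separate support. Kcnmb4, at 4.29, 4.23 and 4.76 CPM without and 5.17, 4.83 and 4.36 CPM with lenvatinib, overlapped between the groups and did not pass (0.10 ± 0.13, edgeR adjusted p = 0.616). Kcnmb1, the smooth muscle beta subunit, had 8, 5 and 11 counts without and 5, 2 and 2 with lenvatinib, too few for the test. Of 5 tested smooth muscle markers Acta2, Tagln and Cnn1 rose, Des fell and Smtn did not pass. Myh11, the remaining marker, had 11 counts over all libraries and was not tested. The list of 6 summed to 5708 to 5924 CPM without and 6639 to 6800 CPM with lenvatinib. Most of that was Des, also in the skeletal muscle list (means 3364 and 2949 CPM), and Acta2 (2119 and 3207 CPM). The part of these markers was not tested. The beta subunits were thus counted while their pore gene Kcnma1 was listed at 0 in 5 of 6 libraries.

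The Kcnab genes encode cytosolic beta subunits of the Kcna channels, which resemble oxidoreductase enzymes. Kcnab1 was at 3.57, 4.43 and 4.24 CPM without and 1.94, 1.8 and 2.72 CPM with lenvatinib, 1.86-fold lower and not overlapping (-0.90 ± 0.17, edgeR adjusted p = 4.45e-05). Kcnab3 was at 4.85, 4.12 and 4.24 CPM without and 3.03, 3.93 and 3.03 CPM with lenvatinib, 1.33-fold lower (-0.41 ± 0.15, edgeR adjusted p = 0.0311). Its second lenvatinib library came close to the lowest untreated one, and it no longer passed without the first untreated library (edgeR adjusted p = 0.142), the first lenvatinib library (0.111) or the third (0.137). Kcnab2 went the other way without passing, at 0.451, 0.549 and 0.522 CPM without and 0.848, 0.532 and 0.989 CPM with lenvatinib (0.66 ± 0.34, edgeR adjusted p = 0.154). The span of its row, introns included, overlaps that of Nphp4 on the other strand by 1205 bases. Of the Kcna pore genes these subunits serve, only Kcna7 was tested, at 0.56 ± 0.303 and 0.418 ± 0.06 CPM (SD, n = 3; edgeR adjusted p = 0.467). The Kcne and Kcnip genes were not tested: Kcne4, a partner of Kcnq channels, had 1 to 6 counts per library, and Kcnip3, a calcium sensor that binds Kcnd channels and DNA, 2 to 7. Summed over the 15 accessory genes, the level was 16.05 ± 0.426 CPM in untreated and 11.9 ± 0.156 CPM in lenvatinib libraries.

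**Figure D4:**
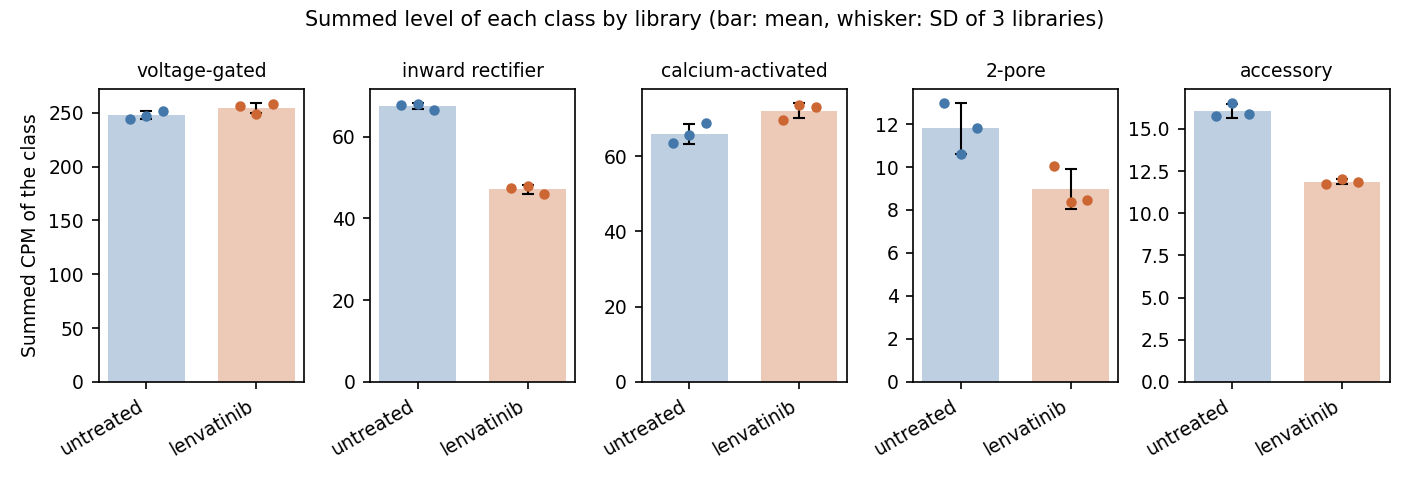
Summed CPM of all genes of each class in each library (points), with the group mean (bars from 0) and SD (whiskers, n = 3); each panel has its own axis. With lenvatinib the groups lie apart and lower for inward rectifiers (66.5 to 68.1 against 45.9 to 47.95 CPM), 2-pore genes (10.6 to 12.97 against 8.39 to 10.06) and accessory subunits (15.8 to 16.5 against 11.7 to 12.03), apart and higher for calcium-activated genes (63.5 to 68.7 against 69.7 to 73.5), and voltage-gated sums overlap.

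Voltage-gated genes summed to 248 ± 3.68 CPM in untreated and 254 ± 4.88 CPM in lenvatinib libraries, and the ranges overlapped. Tandem-pore genes summed to 11.8 ± 1.18 and 8.97 ± 0.944 CPM. All 92 genes together were at 404 to 415 CPM without and 391 to 397 CPM with lenvatinib. The 16 tested genes under 5 CPM in both groups held 7 of the 11 falls, and of the 7 tested genes of at least 10 CPM in untreated libraries 3 fell, 1 rose and 3 did not pass. How often other tested rows at such levels were called was not tested. These counts therefore cannot separate a feature of the channels from one of their level.

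Partners of the channels that carry other names were taken from a list of 14 genes, of which 7 were tested, 2 rose, 1 fell and 4 did not pass, with a median log2 fold change of 0.02. Among all rows tested 13.3% rose and 14.9% fell. Abcc9, the sulfonylurea receptor that joins Kcnj11 or Kcnj8 in the ATP-sensitive channel of muscle, was at 6.32, 7.02 and 6.95 CPM without and 9.21, 8.88 and 8.96 CPM with lenvatinib (0.41 ± 0.10, edgeR adjusted p = 0.00129). Amigo1, an adhesion protein that accompanies delayed rectifier channels, rose from 20.01 ± 0.965 to 22.9 ± 1.24 CPM (edgeR adjusted p = 0.0212), a call lost without untreated library 1 or 3 (0.0786 and 0.078) or lenvatinib library 2 (0.129). Dlg4, a scaffold that clusters channels at the membrane, fell from 35.998 ± 2.504 to 27.5 ± 2.197 CPM (edgeR adjusted p = 3.03e-06). So Abcc9 was higher while its possible pore partners were at a few counts or at 0.

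Other channels and pumps of the muscle membrane also moved both ways, beside 14.9% of all rows tested that fell and 13.3% that rose. Of 32 tested sodium, chloride, HCN and TRP channel genes 5 rose, 10 fell and 17 did not pass (median -0.05). Ano6, a lipid scramblase, rose from 185 ± 4.46 to 213 ± 7.59 CPM (edgeR adjusted p = 1.12e-06). Of 14 tested genes of the sodium-potassium pump, which builds the potassium gradient, and of related transporters 3 rose, 5 fell and 6 did not pass (median -0.01). Atp1b1, a beta subunit of the pump, fell from 71.5 ± 0.594 to 53.5 ± 2.03 CPM (edgeR adjusted p = 2.58e-11), and the sodium-calcium exchanger Slc8a1 rose from 23.3 ± 1.49 to 38.4 ± 1.904 CPM (1.66e-13).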

How the data were processed

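Total RNA was extracted with RNeasy columns and the aligner was Hisat2 2.0.1, per the labels' protocols. HTSeq 0.6.1 and mm10 come from the submitters' processing notes. The authors deposited raw counts per gene row, 1 column per library, and a feature length in bases. The library kit, strand setting and annotation release were not given in the sources used here. None of the 92 members has the start and end of RefSeq's GRCm38.p6 (0 of 92), and 2 start within 1000 bases of it. The mm10 of the notes is the GRCm38 assembly, so the deposited positions do not match the notes and are printed without a build. The counts were tested with edgeR 4.0.16 in R 4.3.3 (glmQLFit, robust, glmQLFTest; TMM factors 0.9956 to 1.007; filterByExpr, minimum count 10, total 15; biological coefficient of variation 3.6%) over all 14989 rows kept. CPM are counts over the kept rows' library total times its TMM factor. Replicate pairs differed by more than sampling noise (chi-square per degree of freedom 2.78 to 5.6). The script was tested on simulated data. The members and lists were chosen with earlier results of these data known. Text names every member that passed, the 2 most abundant per class, the 3 nearest the threshold and, per other list, the 3 smallest p that passed; others are extra. Some genes that this rule names are not reported here. The 17 alternatives included limma 3.58.1 and DESeq2 1.42.0. Piezo1 and Tubb3, fixed in lists, were not analysed here. Marker lists for smooth muscle (3 of 5 tested higher, 1 lower), endothelium (0 of 2 called), macrophage (0 of 2), glia (0 of 1) and cardiomyocyte (0 of 2) were also counted. For every list the shares over all rows tested are 13.3% higher and 14.9% lower.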

Additional observations from a re-analysis of the deposited data

How the results depend on the processing

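The count of 11 lower potassium channel genes was 11 under 3 other scalings, a filter of 1 CPM, limma-voom and no robust estimation. With no filter the count was also 11, but of another set, in which Kcnj16 took the place of Kcnd1. With DESeq2 it was 7 and at an adjusted p under 0.01 it was 7, and with a fold change of at least 1.5 it was 6. Leaving out 1 library gave 8 to 9. The count of 1 higher gene was 2 with no filter and 2 with limma-voom, 0 at 1.5-fold, and 1 to 3 when 1 library was left out: Kcnh7 joined without untreated library 2 or 3 or lenvatinib library 1 (adjusted p = 0.0118, 0.029 and 0.00358), and Kcnq1 without untreated library 2. Over all rows, 305 rose and 545 fell by at least 1.5-fold. Of the 12 called genes 7 (Kcnj2, Kcnj12, Kcnn3, Kcnn4, Kcnk2, Kcnmb2 and Kcnab1) kept their call in every leave-one-out fit. For Kcnmb2, tested only because it was high in the untreated group, the kept call adds no support. DESeq2 did not call Kcnab3, Kcnk5, Kcnc1 and Kcnd1 (DESeq2 adjusted p = 0.101, 0.0887, 0.0609 and 0.12), and without the filter Kcnd1 was at edgeR adjusted p = 0.0515. No called gene changed direction. With the replicate number as a block 11 were lower and 1 higher. Deviations of same-numbered libraries had r = 0.022, -0.078 and -0.004 over 10002 genes, beside -0.06 to 0.063 for differently numbered ones. Whether same-numbered libraries share a culture or a day cannot be told from these values. Of the 92 genes, 35 were at 0 in all libraries and 32 more were removed by the low-count filter; with no filter those 32 were tested, and Kcnj16 and Kcnh7 passed.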
